A study of Mus musculus with 8 samples.

Results

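Transcripts of enzymes of the folate and methionine cycles were followed in cultured mouse neural stem cells exposed to ethanol. The 9 genes were Shmt1, Shmt2, Mthfd1, Mthfd2, Mtr, Mat2a, Mat2b, Ahcy and Adi1, and their members were the probe sets of the deposited table annotated with exactly 1 of these symbols. This gave 20 of 45101 probe sets, for 8 of the 9 genes, and 19 of the 20 probe sets passed a filter on low signal. Mat2a had 0 probe sets under that rule and was not analysed here. The symbols, not the signals, chose the genes, but the set was chosen with earlier results of these data known.

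The folate cycle carries single-carbon units, most of them taken from serine, to the synthesis of thymidylate and purines and to the remethylation of homocysteine. The methionine cycle turns methionine into S-adenosylmethionine, the methyl donor for DNA, RNA, histones and lipids, and clears the by-product S-adenosylhomocysteine. In neural progenitors both cycles serve DNA replication, and folate supply and ethanol exposure have each long been studied for their effect on the developing brain.

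The cells were NS5, a single line of neural stem cells that the labels trace to mouse brain at E11.5, and their RNA was measured on 8 Affymetrix Mouse Genome 430 arrays. Every culture was first plated with FGF2 and EGF for 24 h and then kept for 4 h without growth factors. For the next 48 h it received FGF2 alone, FGF2 with ethanol at 400 mg/dl, TGF-beta1 alone, or TGF-beta1 with ethanol at 400 mg/dl, with 2 arrays in each of these 4 groups. The labels give each growth factor at 10 ng per ul, a unit that the signals cannot check. The labels name no EGF for the exposure itself in any group. Whether both replicates of each group were separate cultures is not stated, so the p-values measure only the spread between these samples, which may be technical.

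The arrays had been scaled by the authors to a common 2% trimmed mean signal of 500, and 40.1% to 46.6% of probe sets on an array had a signal over 100. Of the neural stem and radial glia markers 9 of 10 passed the filter, with Prom1 below it. So did 4 of 4 astrocyte, 4 of 6 neuronal, 3 of 4 mesenchymal and 1 of 4 oligodendrocyte markers, the last being Cnp, and 0 of 4 microglial and 0 of 4 endothelial markers. The mesenchymal markers summed to 177 to 1980.4 on the ethanol arrays and to 372 to 1189.7 on the others. Prom1 ranged only up to 55.5 over the 8 arrays. The summed astrocyte signal was 30990.0 to 37694 on the ethanol arrays and 20075 to 34784 on the others. Within it Gfap ran from 61.9 to 8284 over the 8 arrays, Aldoc from 10967 to 21732 and Aqp4 from 5327 to 13807. The summed neuronal signal was 8780.1 to 13606 against 5506 to 11337. Most of the neuronal sum was the signal of Map2 alone, at 5331 to 12179 over the 8 arrays. Dcx reached 1013, Tubb3 452 and Syp 88.9, and Rbfox3 and Stmn2 did not pass the filter. In such bulk RNA, fewer cells of a type and less RNA per cell cannot be told apart.

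A pair of arrays went against their growth factor label. Fn1, a matrix gene driven by TGF-beta1, had signals of 120 and 139 in FGF2 and of 3015 and 4109 in TGF-beta1. Ethanol and FGF2 replicate 1, as labelled, had 6828 and its partner 116, whereas the library labelled Ethanol and TGF-beta1 replicate 1 had 124 and its partner 8226. Pmepa1, another TGF-beta target, showed the same order, with 8198 and 1081 on the 2 doubted arrays. Every array was kept in its labelled group, and results are also given without both doubted arrays. For the ethanol part of their labels, the mean of 27 cell cycle genes was taken on the log2 scale relative to the arrays without ethanol. It was -3.00 to -1.99 on the 4 ethanol arrays and -0.88 to 0.48 on the others. That list was chosen with earlier results of these data known, so it is not an independent check of the ethanol labels.

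Across the 8 measured genes, none passed an adjusted p of 0.05 in any of the 6 comparisons fitted (limma, Benjamini-Hochberg adjustment over 10916 genes). For ethanol averaged over both growth factors the background was 1.99% of all genes called, 20 that rose and 197 that fell. It was 0% for ethanol within FGF2 and 1.19% for ethanol within TGF-beta1. At an unadjusted p of 0.05 the average comparison held 2 of the 8 members, Shmt1 and Ahcy, against 10.8% of all genes, or 1177 of them. The median log2 fold change of the 8 members with ethanol was -0.19 (7 below 0), beside 0.03 over all genes tested (5024 of 10916 below 0). Without the doubted arrays the median of the members was -0.27.

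**Figure D1:**
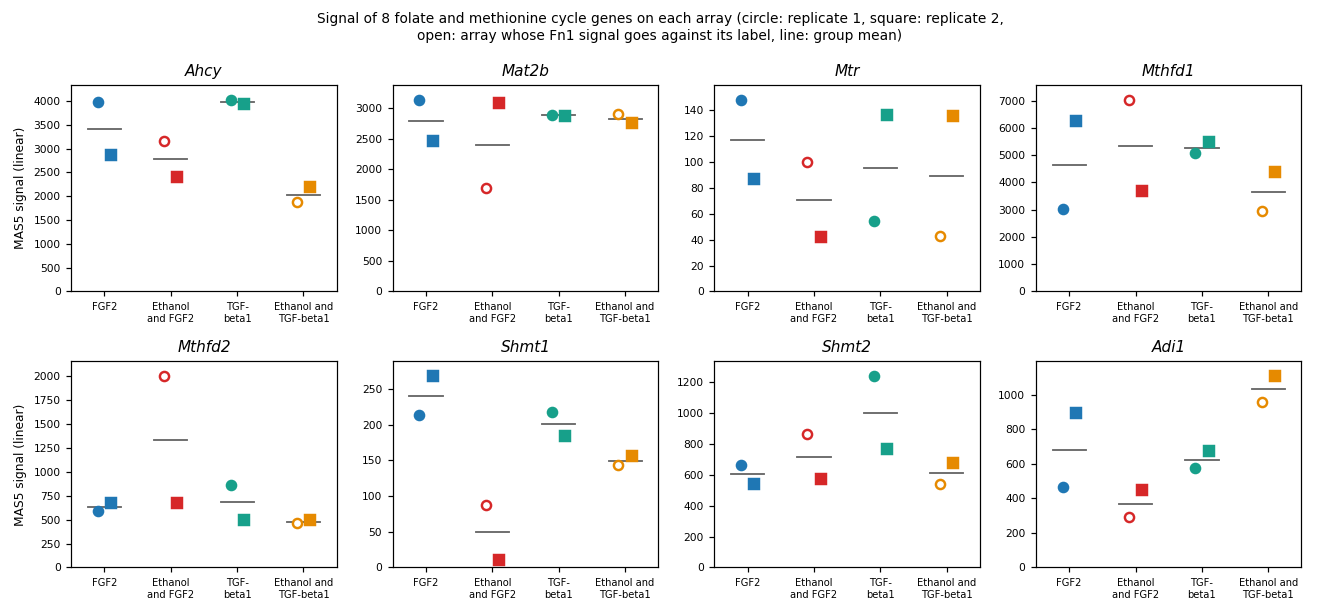
Linear array signal of the probe set used for each of 8 genes, by group, with circles for replicate 1, squares for replicate 2, open symbols for the 2 arrays whose Fn1 signal goes against their label, and lines for group means. The Shmt1 signals of the 4 ethanol arrays, up to 156, all lie below the 4 others, from 185 up, while the other 7 genes overlap between ethanol and no ethanol.

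Shmt1 encodes the cytosolic serine hydroxymethyltransferase, which moves a carbon unit from serine to tetrahydrofolate and takes part in making thymidylate. It lies on chromosome 11 at 60788897-60811265 of GRCm38.p6. Ahcy, at 155059310-155074497 of chromosome 2, encodes the hydrolase that splits S-adenosylhomocysteine into adenosine and homocysteine. These were the 2 members with the smallest p for ethanol, so their upstream sequences are shown: the 250 bases before the annotated start in RefSeq (GRCm38.p6), at chr11:60811266-60811515 and chr2:155074498-155074747, both on the minus strand and written 5′ to 3′ along the gene. Capitals mark each match, on either strand, to CCAAT or to GGGCGG, the core letters of the boxes read by NF-Y and by Sp family factors.

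Shmt1: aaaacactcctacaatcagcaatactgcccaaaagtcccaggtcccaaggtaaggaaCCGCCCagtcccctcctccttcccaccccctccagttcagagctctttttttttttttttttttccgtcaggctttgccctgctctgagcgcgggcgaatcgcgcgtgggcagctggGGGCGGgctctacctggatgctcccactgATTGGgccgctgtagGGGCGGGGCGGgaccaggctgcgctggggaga
Ahcy: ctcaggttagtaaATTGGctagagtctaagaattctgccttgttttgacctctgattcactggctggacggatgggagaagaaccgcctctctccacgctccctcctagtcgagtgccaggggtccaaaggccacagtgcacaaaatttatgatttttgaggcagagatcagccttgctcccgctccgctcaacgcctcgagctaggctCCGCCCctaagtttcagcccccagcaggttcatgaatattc

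The Shmt1 window held 1 CCAAT match, 47 bases before the start, and 4 GGGCGG matches, at 193, 76, 32 and 27 bases, of which the last 2 share a base. The Ahcy window held 1 of each, at 237 and 41 bases. Of the 8 member genes with an entry, Mat2a included, 7 held CCAAT and 6 held GGGCGG, beside 33.8% and 32.7% of 32851 promoter windows of the same length. The letters TGATGNAA, a core read by ATF4, were in 0 of the 8 windows and in 3.45% of all, and CACGTG, the E-box, was in 0 of the 8 and in 6.02% of all. Such a match is a description of the letters and not a measured site.

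Shmt1 was measured by 4 probe sets. The one with the highest mean, 1425178_s_at, stood for the gene in the table of all genes. It had signals of 213 and 268 in FGF2, 88.2 and 10.1 in FGF2 with ethanol, 218 and 185 in TGF-beta1, and 143 and 156 in TGF-beta1 with ethanol. All 4 ethanol arrays were lower than all 4 arrays without ethanol, with the deepest gap in FGF2. Group means, in descending order, were 240.4 ± 38.6 (SD, n = 2) in FGF2, 201 ± 23.6 in TGF-beta1, 149.7 ± 8.95 in TGF-beta1 with ethanol and 49.1 ± 55.2 in FGF2 with ethanol, and the arrays of FGF2 and of TGF-beta1 overlapped. The log2 fold change with ethanol was -1.23 ± 0.37 (SE; 95% interval -2.08 to -0.39; adjusted p = 0.205, limma) on average. Within FGF2 it was -2.10 ± 0.53 (adjusted p = 0.249), and within TGF-beta1 -0.37 ± 0.53 (adjusted p = 0.881, limma). The difference between these effects was 1.72 ± 0.74 (adjusted p = 0.831, limma), with 0% of all genes called. These fold changes are on the scale of log2(signal + 23.66), which understates changes of low signals. On that scale FGF2 with ethanol had a mean of 5.94, under the filter value of 6.402 that was applied to the mean over all arrays.

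The other Shmt1 probe sets were fitted in a table of all 20967 probe sets that passed the filter. In it 1425179_at fell with ethanol by 1.66 ± 0.33 on the log2 scale (adjusted p = 0.0403, limma); on that scale the signal was 3.16-fold lower. Of the 19 member probe sets it was the 1 called, against 1.44% of all probe sets. Its signals were 214 and 147 in FGF2, 94.2 and 74.3 in FGF2 with ethanol, 420.1 and 297 in TGF-beta1, and 21.8 and 87.4 in TGF-beta1 with ethanol. The lowest of these was under the added constant of 23.66, and without detection calls its presence cannot be judged. The ethanol arrays again all lay below the others, here with the wider gap in TGF-beta1, where the log2 fold change was -2.41 ± 0.46 (adjusted p = 0.0541, limma) beside -0.91 ± 0.46 (adjusted p = 0.639) within FGF2. Its difference between the growth factors, -1.50 ± 0.66 (adjusted p = 0.831, limma), thus had the opposite sign to that of 1425178_s_at, and neither was called.

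The 2 remaining Shmt1 probe sets overlapped between ethanol and no ethanol. Probe set 1425177_at had 147 and 231 in FGF2, 56.7 and 68.2 in FGF2 with ethanol, 114 and 193 in TGF-beta1, and 131 and 151 in TGF-beta1 with ethanol, so that both ethanol arrays were lower in FGF2 but not in TGF-beta1 (average log2 fold change -0.67 ± 0.27, adjusted p = 0.410, limma). Probe set 1422198_a_at ran from 19.5 to 135 with ethanol and from 86.9 to 146 without (-0.70 ± 0.42, adjusted p = 0.616, limma). All 4 Shmt1 values were thus below 0 on average, and the pairwise correlation of the 4 over the 8 arrays ran from 0.17 to 0.75. Among all probe sets tested, 3.88% had the 4 ethanol arrays below the 4 others, and 2 of the 19 member probe sets did, both of Shmt1.

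**Figure D2:**
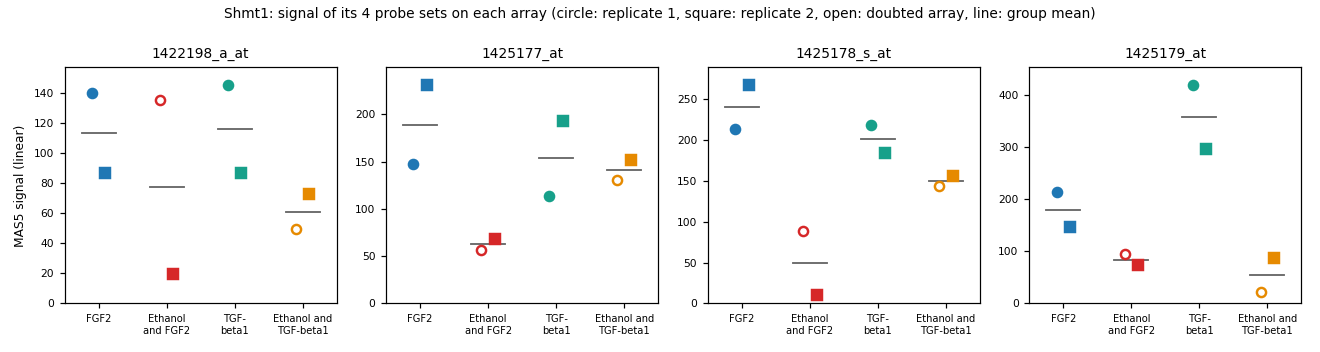
Linear signal of the 4 Shmt1 probe sets on each array by group, with circles for replicate 1, squares for replicate 2, open symbols for the 2 doubted arrays and lines for group means. In 1425178_s_at the lowest value, 10.1, lies in FGF2 with ethanol, and in 1425179_at the lowest, 21.8, lies in TGF-beta1 with ethanol.

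Without both doubted arrays, 1425179_at had a log2 fold change of -1.40 ± 0.32 and 1425178_s_at one of -1.64 ± 0.31, so both values stayed below 0. The call was lost in that fit, which left 1 array in each ethanol group and 2 residual degrees of freedom. Leaving out any 1 array other than Ethanol and TGF-beta1 replicate 2 also ended the call of 1425179_at, with adjusted p from 0.0577 to 0.221 (limma), and without that array it was 0.0167. With Ethanol and FGF2 replicate 1 left out the call passed to the gene's other probe set, 1425178_s_at, at -1.67 ± 0.25 (adjusted p = 0.0311, limma), and without Ethanol and FGF2 replicate 2, the array with the signal of 10.1, that probe set was at -0.80 ± 0.24 (adjusted p = 0.212, limma). The call also ended when the replicate number was added as a block (adjusted p = 0.0802, limma). Cell cycle genes moved with this result: all 27 were below 0 on average with ethanol. Of these 25 were called lower, beside 197 of all 10916 genes, and the median log2 fold change of the 27 was -2.67. The Gapdh 3′ to 5′ signal ratio, a sign of RNA or labelling quality, was 3.33 and 3.48 on the arrays of FGF2 with ethanol and 1.64 to 2.20 on all others. The same ratio for actin did not set that group apart, at 3.57 and 4.20 there and 2.35 to 3.61 on the others. The part of these in the Shmt1 values was not tested.

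Shmt2 encodes the mitochondrial serine hydroxymethyltransferase, the main entry of serine carbon into the mitochondrial folate pathway (chromosome 10, 127517123-127522444). Its signals (1455084_x_at) were 665 and 543 in FGF2, 861 and 572 in FGF2 with ethanol, 1236 and 764 in TGF-beta1, and 537 and 679 in TGF-beta1 with ethanol. The 2 arrays of TGF-beta1 alone were among the 3 highest, and the groups with and without ethanol overlapped. The log2 fold change with ethanol was -0.22 ± 0.23 on average (adjusted p = 0.811, limma), with 0.22 within FGF2 and -0.67 ± 0.32 within TGF-beta1 (adjusted p = 0.567). Its 3 other probe sets had average values of -0.13, -0.12 and 0.34, none called (adjusted p from 0.738 to 0.947, limma). Of the 4 Shmt2 probe sets, 3 carry the suffix x, Affymetrix's mark for probes that can match other transcripts. The same suffix is on 1436704_x_at of Mthfd1 and on 1438759_x_at and 1449076_x_at of Adi1, the last of which stood for its gene.

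Mthfd1 encodes the cytosolic enzyme that interconverts formyl, methenyl and methylene forms of tetrahydrofolate (chromosome 12, 76254406-76319820). Its signals (1415916_a_at) were 3012 and 6261 in FGF2, 7008 and 3683 in FGF2 with ethanol, 5061 and 5493 in TGF-beta1, and 2936 and 4362 in TGF-beta1 with ethanol. The replicates of both FGF2 groups stood further apart than the group means, which ran from 3649 ± 1008 (SD, n = 2) to 5345 ± 2351. The average log2 fold change was -0.17 ± 0.29 (adjusted p = 0.902, limma), with 0.22 ± 0.41 within FGF2 and -0.56 ± 0.41 within TGF-beta1. Its second probe set, 1415917_at, followed the first over the 8 arrays with a correlation of 0.87, while the third, 1436704_x_at, did not (-0.31), so these 3 do not report 1 common level.

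Mthfd2 encodes the mitochondrial methylenetetrahydrofolate dehydrogenase and cyclohydrolase, an enzyme high in embryonic and dividing cells and a known target of the transcription factor ATF4 (chromosome 6, 83305704-83326011). Its signals (1419253_at) were 595 and 675 in FGF2, 1996 and 673 in FGF2 with ethanol, 867 and 495 in TGF-beta1, and 460.0 and 499.8 in TGF-beta1 with ethanol. A single array, labelled Ethanol and FGF2 replicate 1, stood above all others, and its second probe set, 1419254_at, showed the same array at 719 beside 72.8 to 250.2 on the rest. The correlation of both probe sets over the 8 arrays was 0.94. The log2 fold change with ethanol was 0.85 ± 0.47 within FGF2 (adjusted p = 0.676, limma), and 0.09 without the doubted arrays. On average it was 0.21 ± 0.33 (adjusted p = 0.894, limma), and -0.15 without the doubted arrays.

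That array was also high in other ATF4 targets. Asns, which makes asparagine, had 2782 there and 1044 to 1458 on the 7 others. Slc7a5 and Slc3a2, the subunits of a carrier of large neutral amino acids, had 3549 and 5757 there, beside ranges of 620 to 2387 and 1507 to 4217 elsewhere. Ddit3 had 766 there and 172 to 338 elsewhere. The mean of 16 ATF4 targets, on the log2 scale relative to the arrays without ethanol, was 1.28 on it and -0.27 to 0.40 on the others. Atf4 itself had its highest signal, 6611, on the same array. In the average ethanol comparison 0 of these 16 genes were called and 14 lay above 0 (median log2 fold change 0.40, or 0.23 without the doubted arrays). Since this array is 1 of the 2 whose Fn1 went against the label, its growth factor is in doubt, and the part of that doubt in the high Mthfd2 signal was not tested.

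**Figure D3:**
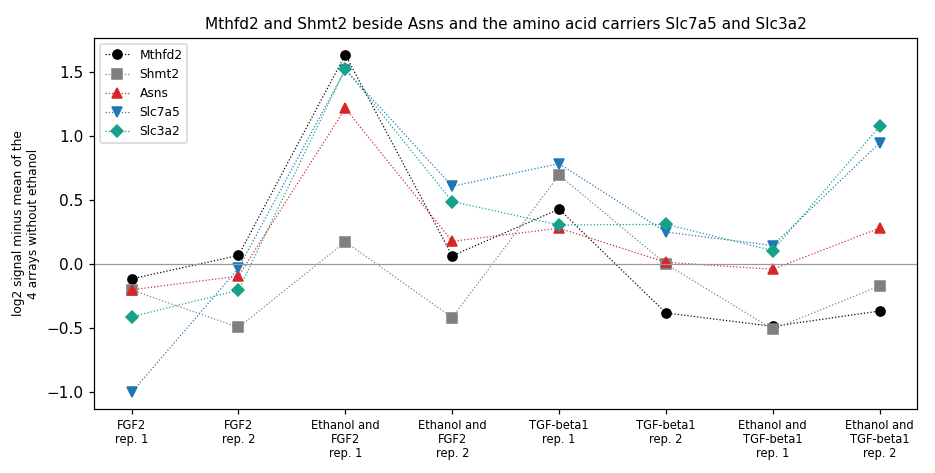
Values of Mthfd2, Shmt2, Asns, Slc7a5 and Slc3a2 on each of the 8 arrays, as log2 of the signal with no constant added. The mean of the 4 arrays without ethanol was subtracted for each gene, and dotted lines only join the points of a gene. The array labelled Ethanol and FGF2 replicate 1, with a Mthfd2 signal of 1996 and an Asns signal of 2782, is the highest for every gene plotted but Shmt2.

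Mtr encodes methionine synthase, the cobalamin-dependent enzyme that joins both cycles by passing a methyl group from folate to homocysteine (chromosome 13, 12181331-12258199). Its signals (1439811_at) were low, at 148 and 86.9 in FGF2, 100.3 and 41.9 in FGF2 with ethanol, 54.5 and 137 in TGF-beta1, and 43.2 and 136 in TGF-beta1 with ethanol. Replicates stood further apart than the group means, which ran from 71.1 ± 41.3 to 117 ± 43.1 (SD, n = 2). The average log2 fold change was -0.36 ± 0.42 (95% interval -1.31 to 0.58; adjusted p = 0.838, limma). The second Mtr probe set, 1458532_at, was at 5.32 to 45.6 and did not pass the filter.

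Mat2b encodes the regulatory subunit of methionine adenosyltransferase, the enzyme that makes S-adenosylmethionine (chromosome 11, 40679314-40695203). Its signals (1448196_at) were 3127 and 2461 in FGF2, 1699 and 3090.1 in FGF2 with ethanol, 2895 and 2877 in TGF-beta1, and 2899 and 2757 in TGF-beta1 with ethanol. The array labelled Ethanol and FGF2 replicate 1 was the lowest, and the other 7 lay between 2461 and 3127. The average log2 fold change was -0.15 ± 0.21 (adjusted p = 0.877, limma), or 0.04 without the doubted arrays. The 95% interval with all arrays was -0.62 to 0.32, and it reflects only the spread between these samples, which may be technical.

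Ahcy had signals (1417125_at) of 3973 and 2859.9 in FGF2, 3164 and 2407 in FGF2 with ethanol, 4013 and 3927 in TGF-beta1, and 1873 and 2197 in TGF-beta1 with ethanol. Within TGF-beta1 the ethanol arrays were well below the others, whereas the FGF2 groups overlapped. Its group means in descending order were 3970.2 ± 60.8 (SD, n = 2) in TGF-beta1, 3416 ± 787 in FGF2, 2786 ± 535 in FGF2 with ethanol and 2035 ± 229 in TGF-beta1 with ethanol. The log2 fold change with ethanol was -0.62 ± 0.18 on average (95% interval -1.02 to -0.23; adjusted p = 0.164, limma). It was -0.96 ± 0.25 within TGF-beta1 (adjusted p = 0.158) and -0.29 ± 0.25 within FGF2 (adjusted p = 0.795, limma), and the difference between these was -0.67 ± 0.35 (adjusted p = 0.831, limma). Without the doubted arrays the average was -0.66 (adjusted p = 0.296, limma).

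Adi1 encodes acireductone dioxygenase, an enzyme of the salvage pathway that returns the methylthio group left by polyamine synthesis to methionine (chromosome 12, 28675207-28682175). Its signals (1449076_x_at) were 466 and 894 in FGF2, 294 and 447 in FGF2 with ethanol, 575 and 673 in TGF-beta1, and 956 and 1107 in TGF-beta1 with ethanol. The ethanol arrays were the lowest in FGF2 and the highest in TGF-beta1, with no overlap inside either growth factor. The log2 fold change with ethanol was -0.79 ± 0.35 within FGF2 (adjusted p = 0.593, limma) and 0.71 ± 0.35 within TGF-beta1 (adjusted p = 0.570). Their difference, 1.50 ± 0.49, had an unadjusted p of 0.0135 and an adjusted p of 0.831 (limma), and was 1.32 without the doubted arrays. At an unadjusted p under 0.05, 484 genes of 10916 passed the interaction. The other Adi1 probe sets repeated it in part. Probe set 1438758_at was higher with ethanol in TGF-beta1 (50.0 and 47.7 against 61.2 and 105) but overlapped in FGF2 (43.0 and 83.4 against 50.8 and 33.9). Probe set 1438759_x_at overlapped both in TGF-beta1 (163 and 297 against 239 and 227) and in FGF2 (160.3 and 451 against 56.8 and 200.1).

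**Figure D4:**
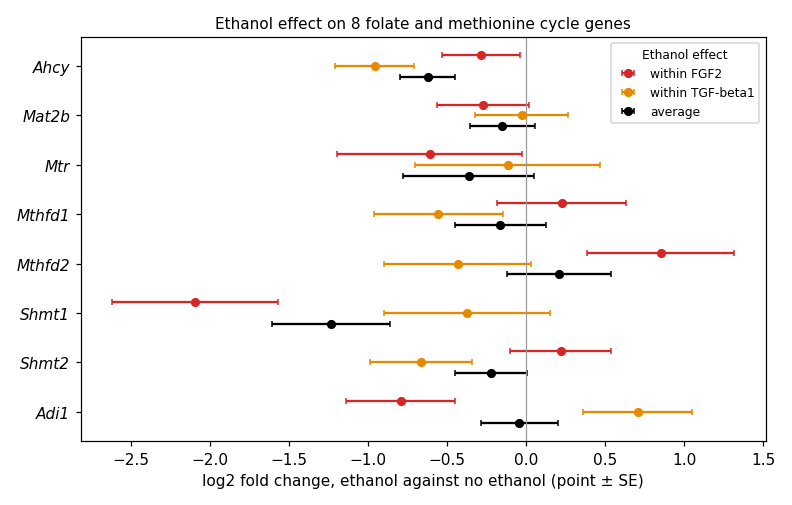
Log2 fold change with ethanol (point) and its moderated standard error (bar) for 8 genes, within FGF2, within TGF-beta1 and averaged over both. Shmt1 (-1.23) and Ahcy (-0.62) have the averages furthest below 0, and Adi1 lies at -0.79 within FGF2 and at 0.71 within TGF-beta1.

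Over all 19 probe sets tested, 14 had an average log2 fold change below 0, beside 5024 of all 10916 genes tested. The 19 came from 8 genes, 4 of them from Shmt1, so they are not separate results. The values of 1 gene could differ in sign between its probe sets, as in Shmt2 (-0.22 and 0.34), Mthfd1 (-0.17 and 0.24) and Adi1 (-0.04 and 0.08), whereas all 4 of Shmt1 were below 0.

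**Figure D5:**
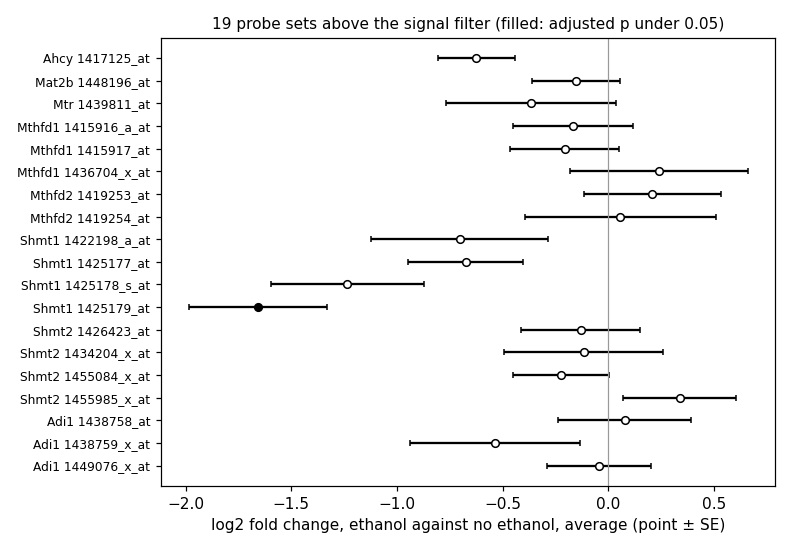
Log2 fold change with ethanol, averaged over both growth factors (point), and its standard error (bar) for 19 probe sets, with a filled point where the adjusted p was under 0.05. Only 1425179_at of Shmt1, at -1.66, is filled.

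Growth factor alone gave 0 called members. For TGF-beta1 against FGF2 without ethanol, with 0% of all genes called and 542 at an unadjusted p under 0.05, the largest member value was that of Shmt2 (0.67 ± 0.32, adjusted p = 0.980, limma). With ethanol, again with 0% called and 288 genes at an unadjusted p under 0.05, Shmt1 was at 1.50 ± 0.53, Adi1 at 1.45 ± 0.35 and Mthfd2 at -1.24 ± 0.47 (each adjusted p = 0.983, limma). Both groups of the last comparison hold 1 doubted array. Without those arrays the values were 1.26 for Adi1, -0.41 for Mthfd2 and, by the same Shmt1 probe set 1425178_s_at, 2.41. The other Shmt1 probe set, 1425179_at, was at -0.60 with all arrays and at 0.18 without those 2.

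Other genes of the pathways were taken from a list of 70 folate, methionine, cobalamin, transsulfuration, salvage, polyamine and serine genes, of which 52 could be tested. In all 6 comparisons 0 of these 52 rose and 0 fell. On average with ethanol 34 of 52 were below 0, beside 5024 of all 10916 genes tested, with a median log2 fold change of -0.07. By group, 10 of 18 folate enzymes and carriers, 9 of 13 methionine cycle and cobalamin genes, 4 of 5 transsulfuration genes, 8 of 10 salvage and polyamine genes and 3 of 6 serine synthesis and uptake genes had values below 0. The genes furthest from 0 relative to their error were Mthfd1l, the mitochondrial formyltetrahydrofolate synthetase (-0.74, adjusted p = 0.282), Slc3a2 (0.79, adjusted p = 0.307) and Adk, the kinase that removes the adenosine formed by Ahcy (-0.66, adjusted p = 0.309, limma).

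Mthfd1l had 821 and 1116 in FGF2, 1005 and 504 in FGF2 with ethanol, 1277 and 1284 in TGF-beta1, and 494 and 724 in TGF-beta1 with ethanol, with no overlap inside TGF-beta1 (-1.07 ± 0.35, adjusted p = 0.325, limma). Pfas, an enzyme of purine synthesis, had 3293 and 3417 in FGF2 and 1866 and 2006 with ethanol added, but 2929 and 2725 in TGF-beta1 and 3035 and 2866 with ethanol added. Its log2 fold change was -0.79 ± 0.20 within FGF2 (adjusted p = 0.250) and 0.06 within TGF-beta1 (adjusted p = 0.955), with a difference of 0.85 (adjusted p = 0.831, limma). Within FGF2 the next were Slc7a5 (1.55) and Slc3a2 (1.30), which carry the high array described above. Within TGF-beta1 they were Ahcyl2, an Ahcy-like protein (0.60), and Mthfd2l, the mitochondrial paralog of Mthfd2 (0.74). The interaction was furthest from 0, relative to its error, for Pfas, Slc7a5 (-1.52) and Ggh, which trims folate polyglutamates (-0.87). For TGF-beta1 against FGF2 the leading genes were Slc7a5 (1.01), Mpst (0.71) and Ahcyl2 (-0.46) without ethanol, and Pfas (0.60), the cobalamin carrier Tcn2 (-0.49) and Sardh (-0.43) with it, none called.

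The genes whose transformed values ran closest to a member over the 8 arrays were Vrk1 for Ahcy (Pearson's r = 0.97), Psme3 for Shmt1 (0.97), Ptprm for Shmt2 (0.97), Polr2b for Mthfd1 (0.98), R3hdm1 for Mthfd2 (0.98), Phex for Mtr (0.99), Slc36a4 for Mat2b (0.99) and G530011O06Rik for Adi1 (0.96). These are the highest of 10916 genes over 8 arrays that share 4 groups, and are given as a description. Among the members, each by the probe set that stood for its gene, the highest correlation was that of Ahcy with Shmt2 (0.65). The lowest was that of Mat2b with Mthfd2 (-0.84), both over the same 8 arrays. The doubted array labelled Ethanol and FGF2 replicate 1 had both the lowest Mat2b signal (1699) and the highest Mthfd2 signal (1996).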

How the data were processed

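RNA of NS5 cells was hybridised to 8 arrays, 2 in each of 4 groups taken from the labels. The deposited table holds linear signal intensities, made with MAS5 and GCOS per the submitters' processing notes, with versions not given in the sources used here. It has no detection calls, so low signals were handled by a filter on the mean over all arrays, which a single array or group could fall below. All 8 value columns matched a sample by title, and 0 were left unmapped. The number of arrays limits the precision.

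Symbols came from the platform annotation: of 45101 probe sets, 64 were controls, 34945 had 1 symbol, 932 several and 9160 none. A constant of 23.66 (25th percentile of the whole table) was added to each intensity before taking log2. The probe set with the highest mean stood for a gene. Genes at or above the 40th percentile (6.402) were tested, 10916 of 18193. Levels are linear signals without the constant and are compared only within a probe set, apart from the marker sums, which add unlike probe sets. Positions and promoter windows are from RefSeq (GRCm38.p6); the table of promoters had no entry for Adi1.

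A model of 4 group means was fitted in R 4.3.3 by limma 3.58.1 using a trend, with 4 residual and 4.929 prior degrees of freedom. Two-sided p-values received a Benjamini-Hochberg adjustment across the genes of each of 6 comparisons. The fit was tested on simulated data with known changes for average ethanol. It called 88 of 109 changes of 2 on the log2 scale and 35 of 91 changes of 1, with 5 false calls. A gene that was not called may therefore still have changed.

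The members, the gene lists and the alternatives were chosen with earlier results of these data known. Named genes are all members, pathway genes past the threshold, the 3 pathway genes with the largest moderated t in each comparison, and the 3 genes most correlated with each member, of which the closest is given. Fn1 and Pmepa1 check the labels. Asns, Ddit3 and Atf4 were named outside this rule, after their values were seen. Alternatives varied the constant, filter, normalization, probe set rule, trend, model terms, replicate block and arrays included.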

Additional observations from a re-analysis of the deposited data

How the results depend on the processing

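The members' values kept their sign in 468 of 486 cases, each 1 gene in 1 comparison. The cases used another constant, filter, normalization, probe set rule or model, or left out both doubted arrays. Another filter, no trend, the replicate block and a model with fewer terms leave the fitted value unchanged. Cases with those settings could not change sign, so the share does not measure robustness. No reversed value was called, and the causes were not tested. With quantile normalization Mthfd2 was at -0.014 for TGF-beta1 against FGF2 without ethanol. With the mean of all probe sets of a gene, Mthfd1 was at -0.032 for ethanol within FGF2 and 0.069 for the growth factors with ethanol, and without ethanol Mthfd2 was at -0.093 and Shmt1 at 0.11. Without both doubted arrays the average ethanol values of Mat2b, Mthfd2 and Adi1 were 0.044, -0.15 and 0.15. Within FGF2 those of Mat2b, Mthfd1 and Shmt2 were then 0.15, -0.24 and -0.067, and within TGF-beta1 Mtr was at 0.51. The interaction was then -0.22 for Mat2b and -0.72 for Shmt1. Growth factor values were then 0.90 for Shmt1 without ethanol, and -0.16, 0.24 and 0.24 for Mat2b, Mthfd1 and Shmt2 with ethanol. Both Shmt1 values are then those of probe set 1425179_at, which had the highest mean on the other 6 arrays; 1425178_s_at was at 2.64 and -0.23 in these 2 comparisons, with no change of sign.

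The count of called members for average ethanol was 0 and became 1 (Shmt1) when all probe sets were fitted. Leaving out 1 array gave 0 to 1 called members: 1 without Ethanol and FGF2 replicate 1 (Shmt1 -1.67, adjusted p = 0.0304) and 1 without Ethanol and TGF-beta1 replicate 2 (-1.98, adjusted p = 0.0180, by 1425179_at, limma). Without Ethanol and FGF2 replicate 2 Shmt1 was at -0.80 (adjusted p = 0.212). Within TGF-beta1 Shmt1 was at -3.05 without Ethanol and TGF-beta1 replicate 2, but by 1425179_at, which was at -2.41 with all arrays. By 1425178_s_at the value within TGF-beta1 was -0.37 with all arrays and -0.48 to -0.27 with single arrays left out. The 1 called member probe set became 0 with a constant of 1, no filter, the additive model or ethanol as the single term. With the 60th percentile filter the count was also 0, but no Shmt1 probe set passed that filter, so 1425179_at was not tested there. Its values with arrays left out are given above.

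The replicate number as a block gave 0 called member probe sets and 0 called members in all 6 comparisons, with 179 genes called on average and 0 within TGF-beta1. Equal numbers were not taken as pairs: the labels do not say so, and correlations of their deviations were 0.47 for both groups without ethanol, -0.44 for both ethanol groups and -0.13 to 0.046 for the others. With the numbers of Ethanol and FGF2 crossed, chosen after seeing the data, 0 members were called.

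Of all genes, average ethanol called 119 with the 60th percentile filter, 0 without both doubted arrays, and 92 to 231 with single arrays left out. Within FGF2 it called 29 with no filter, 3 with the 60th percentile filter, 29 after quantile normalization, 32 after median centring, and 0 to 76 with single arrays left out. Within TGF-beta1 it called 75 with the 60th percentile filter, 85 with the mean of probe sets, 78 with no trend, 0 without both doubted arrays, and 0 to 162 with single arrays left out. Without both doubted arrays the growth factor comparisons called 5 and 2. Median centring moved the median of all genes from 0.03 to -0.10 on average and from -0.01 to -0.16 within TGF-beta1.

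With single arrays left out, values that changed sign ranged as follows. For average ethanol Mat2b ranged from -0.36 to 0.062, Mthfd1 from -0.43 to 0.10, Mthfd2 from -0.17 to 0.59 and Adi1 from -0.27 to 0.18. Within FGF2 Mat2b ranged from -0.70 to 0.15, Mthfd1 from -0.30 to 0.75 and Shmt2 from -0.067 to 0.50. Within TGF-beta1 Mat2b ranged from -0.066 to 0.0066 and Mtr from -0.74 to 0.51. For the interaction Mat2b ranged from -0.18 to 0.67, Mtr from -0.13 to 1.12 and Shmt1 from -2.15 to 2.59. For the growth factors without ethanol Ahcy ranged from -0.0010 to 0.47, Mat2b from -0.11 to 0.23, Mtr from -0.82 to 0.22, Mthfd1 from -0.25 to 0.80, Mthfd2 from -0.34 to 0.44, Shmt1 from -0.38 to 0.90 and Adi1 from -0.51 to 0.40. With ethanol Mat2b ranged from -0.13 to 0.73, Mtr from -0.43 to 0.82, Shmt1 from -1.24 to 2.36 and Shmt2 from -0.50 to 0.075. The Shmt1 ranges mix probe sets, since leaving out an array can change which has the highest mean. By 1425178_s_at alone they were 0.86 to 2.59 for the interaction, and -0.38 to -0.078 without and 0.63 to 2.36 with ethanol for the growth factors, so its sign did not change there.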
